A study of Homo sapiens with 6 samples.

Results

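Presentation of peptides on major histocompatibility complex (MHC) class I molecules was followed through 9 transcripts of MDA-MB-231 cells, a human triple-negative breast cancer line. The 9 genes were picked by symbol from a table of 63241 genes: the heavy chains HLA-B, HLA-C and HLA-E, their light chain B2M, the peptide transporter subunits TAP1 and TAP2, the loading factor TAPBP, and the immunoproteasome subunits PSMB8 and PSMB9. RNA came from 3 libraries of cells given 40 µM of ArA for 24 h and from 3 libraries of non-treated cells, all of the same line and medium, with no vehicle named for the controls. By the study's title ArA stands for arachidonic acid, an omega-6 fatty acid carried in membrane phospholipids. Levels are in TPM, a share of all transcripts in a library after correction for transcript length. The labels do not tell whether libraries came from separate cultures, so p-values speak of the spread among these libraries alone, and that spread may be technical.

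Class I molecules show fragments of the cell's own proteins to CD8 T cells. Proteasomes cut the proteins, and in immunoproteasomes PSMB8 and PSMB9 replace standard catalytic subunits. The TAP1-TAP2 pump carries the peptides into the endoplasmic reticulum, where tapasin, encoded by TAPBP, bridges the pump to heavy chains paired with B2M. Interferon, acting in part through IRF1 and the co-activator NLRC5, is known to raise the whole set, and NF-kB acts on several of its promoters.

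The identity of the cells was checked first. Vimentin (VIM), a mesenchymal filament gene, stood at 1482 ± 42.5 TPM in ArA libraries and 1389 ± 52.9 TPM in control libraries (SD, n = 3 each), the highest mean of its list of 6. In the same list, MSN had 391 ± 8.85 TPM in ArA and 348 ± 33.2 TPM in control libraries (SD, n = 3 each). CAV1 had 95.4 ± 6.24 TPM in ArA and 104 ± 20.9 TPM in control libraries (SD, n = 3 each). Of 6 luminal breast markers, 3 averaged under 1 TPM (ESR1, PGR and CDH1), and the list summed to 43.82 to 48.06 TPM in ArA and 38.95 to 49.05 TPM in control libraries. Most of that sum was ERBB2, a growth factor receptor, at 39.1 ± 2.15 TPM in ArA and 35.7 ± 5.37 TPM in control libraries (SD, n = 3 each), and GATA3 and FOXA1, luminal transcription factors, were between 2.88 and 4.36 TPM in ArA and between 3.19 and 3.71 TPM in control libraries. Of 8 blood cell markers, 7 had a mean under 1 TPM, MS4A1, NKG7 and HBB were listed at 0, and the list summed to 6.01 to 7.81 TPM in ArA and 5.15 to 6.41 TPM in control libraries. ITGAX, an integrin of myeloid cells, was the exception, with 4.64 to 6.13 TPM in ArA and 4.03 to 5.54 TPM in control libraries. Of 9 fibroblast, endothelial and muscle markers, 8 averaged under 1 TPM, and the list summed to 7.32 to 9.64 TPM in ArA and 7.76 to 8.55 TPM in control libraries. The remaining gene, the collagen COL1A1, had 6.15 ± 0.781 TPM in ArA and 6.61 ± 0.127 TPM in control libraries (SD, n = 3 each). TPM keep no read totals, so the depth of the libraries is unknown.

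Class I genes are known for promoters that carry NF-kB sites, interferon-response elements and CCAAT boxes. RefSeq windows on GRCh38.p14, from 250 bases before to 50 bases after a gene's start, were at hand for 8 of the 9 genes, some with more than 1 start. HLA-E is named only. The 5 windows printed here stand for the heavy chain, the light chain, the transporter with its head-to-head neighbour, and tapasin. How these genes vary between libraries, together or apart, is described further on. Each reads 5′ to 3′ in the direction of its gene. Capitals mark matches, on either strand, to an interferon-response core (GAAA, any 2 bases, GAAA), an NF-kB pattern (GGG, any 2 bases, TT, any base, CC), a GAS pattern of interferon-gamma response (TTCNNNGAA) or a CCAAT box (CCAAT). The interferon cores come in overlapping pairs in B2M, TAP1 and TAPBP, and each pair is 1 run of capitals.
HLA-B, chr6:31357130-31357429, reverse strand: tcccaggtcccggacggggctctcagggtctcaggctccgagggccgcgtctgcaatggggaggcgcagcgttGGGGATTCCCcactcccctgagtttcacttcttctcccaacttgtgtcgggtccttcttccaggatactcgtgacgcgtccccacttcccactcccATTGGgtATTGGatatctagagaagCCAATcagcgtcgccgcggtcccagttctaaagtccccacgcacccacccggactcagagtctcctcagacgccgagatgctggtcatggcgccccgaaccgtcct
B2M, chr15:44711267-44711566, forward strand: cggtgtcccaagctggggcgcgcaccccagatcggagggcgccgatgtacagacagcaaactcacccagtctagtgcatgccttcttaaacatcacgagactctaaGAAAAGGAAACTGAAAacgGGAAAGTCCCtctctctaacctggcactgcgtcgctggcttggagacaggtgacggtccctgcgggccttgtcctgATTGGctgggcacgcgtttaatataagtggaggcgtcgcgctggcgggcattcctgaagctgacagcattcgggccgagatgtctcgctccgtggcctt
TAP1, chr6:32853655-32853954, reverse strand: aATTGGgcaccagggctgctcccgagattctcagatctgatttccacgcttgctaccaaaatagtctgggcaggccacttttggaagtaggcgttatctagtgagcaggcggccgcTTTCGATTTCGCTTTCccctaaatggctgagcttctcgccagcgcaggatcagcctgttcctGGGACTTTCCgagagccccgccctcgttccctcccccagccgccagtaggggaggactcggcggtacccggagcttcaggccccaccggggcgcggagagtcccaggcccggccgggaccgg
PSMB9, chr6:32853942-32854241, forward strand: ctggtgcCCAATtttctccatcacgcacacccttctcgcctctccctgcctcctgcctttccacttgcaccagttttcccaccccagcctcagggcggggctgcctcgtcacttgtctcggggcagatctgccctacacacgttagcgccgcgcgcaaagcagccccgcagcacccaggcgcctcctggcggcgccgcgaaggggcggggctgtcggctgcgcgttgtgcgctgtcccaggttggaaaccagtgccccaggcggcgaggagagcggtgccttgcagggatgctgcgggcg
TAPBP, chr6:33314029-33314328, reverse strand: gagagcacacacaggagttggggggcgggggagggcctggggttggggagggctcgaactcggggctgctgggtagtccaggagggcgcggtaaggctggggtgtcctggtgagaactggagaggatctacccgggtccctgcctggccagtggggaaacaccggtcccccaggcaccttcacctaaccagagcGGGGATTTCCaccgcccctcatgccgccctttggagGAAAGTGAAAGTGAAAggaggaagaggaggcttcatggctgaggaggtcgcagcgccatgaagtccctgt

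The interferon-response core was found in a window of 5 of the 8 genes (B2M, TAP1, TAP2, TAPBP and PSMB8), while 3.57% of 35116 such windows across the genome hold it. The NF-kB pattern was found in 4 (HLA-B, B2M, TAP1 and TAPBP) against 5.68% of all windows, and the GAS pattern in 2 (PSMB8 and, in a window of another start that is not printed, TAP1) against 7.66%. CCAAT stood in 5 (HLA-B, HLA-C, B2M, TAP1 and PSMB9), and 34.6% of all windows hold it. By the RefSeq starts of the printed windows, TAP1 and PSMB9 start 488 bases apart and are read away from each other. So the 2 windows share 13 bases, and the CCAAT match of both is the same one. A gene was counted if any of its windows matched, with 10 windows for the 8 genes, while the shares of all windows are per window. The PSMB8 matches did not stand in all of its windows. The patterns were chosen with the windows in view, and a match describes letters only.

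All but 1 of the genes lie in the MHC region of chromosome 6 and B2M lies on chromosome 15 (GENCODE v29, GRCh38). HLA-E (ENSG00000204592) runs from 30489467 to 30494205 on the forward strand. HLA-C (ENSG00000204525) runs from 31268749 to 31272130 and HLA-B (ENSG00000234745) from 31269491 to 31357188, both on the reverse strand. TAP2 (ENSG00000204267, 32821833 to 32838780), PSMB8 (ENSG00000204264, 32840717 to 32844703), TAP1 (ENSG00000168394, 32845209 to 32853978) and PSMB9 (ENSG00000240065, 32844136 to 32859585) form a cluster in which PSMB9 alone is on the forward strand. TAPBP (ENSG00000231925) runs from 33299694 to 33314387 on the reverse strand, and B2M (ENSG00000166710) from 44711487 to 44718877 on the forward strand. All are protein-coding. In this annotation HLA-B shares 2640 bases with HLA-C, and the PSMB9 span covers all 8770 bases of TAP1 on the other strand and 568 bases of PSMB8. That span begins at 32844136, upstream of the RefSeq start of PSMB9 used above, 32854192, so the head-to-head layout describes the RefSeq starts. Heavy chain genes also resemble each other closely in sequence, and whether counting used strand is not given in the sources used here, so the split of reads among HLA-B, HLA-C and HLA-E, and between PSMB9 and TAP1 or PSMB8, is uncertain.

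The class I machinery was abundant in both groups. Together the 9 transcripts made up 0.357% of all TPM in ArA libraries and 0.317% in control libraries. B2M had the highest level of the 9, rank 68 of the 63241 genes by mean TPM, and HLA-C, HLA-B and HLA-E had ranks 225, 243 and 388. TAPBP, TAP1, PSMB8 and TAP2 followed at ranks 945, 1032, 1269 and 1560, and PSMB9 at rank 4199. B2M exceeded HLA-C by 2.84 to 4.20 times in single libraries, and HLA-B exceeded HLA-E by 1.52 to 1.64 times. HLA-C and HLA-B are neighbours in this order whose ranges overlapped within each group, although HLA-C was higher in all 6 libraries, by 1.03 to 1.09 times. TAPBP and TAP1 likewise overlapped, with TAPBP higher in all 6 by 1.04 to 1.18 times. Every other pair of neighbours had ranges that did not overlap in either group.

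The comparison of ArA-treated with non-treated cells asks whether exposure to the fatty acid goes with altered antigen presentation transcripts. All 9 genes had a higher mean in ArA libraries, by 1.06 to 1.17 times, and no gene of the 9 passed the test. In such bulk RNA, a level in fewer cells and less RNA per cell cannot be told apart. The test was limma on log2(TPM + 1) over the 12999 genes that averaged 1 TPM or more, where each of the 9 had an adjusted p of 0.999. Among all genes tested, 0.0231% passed at an adjusted p of 0.05, with 0.0154% higher in ArA. At an unadjusted p under 0.05, 0 of the 9 and 2.78% of all genes tested passed, with 2.28% higher in ArA. A positive log2 fold change, seen in 9 of 9, was also seen in 68.9% of all genes tested, and the 9 share the same 6 libraries. Their median log2 fold change was 0.16, against 0.06 for all genes tested.

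**Figure D1:**
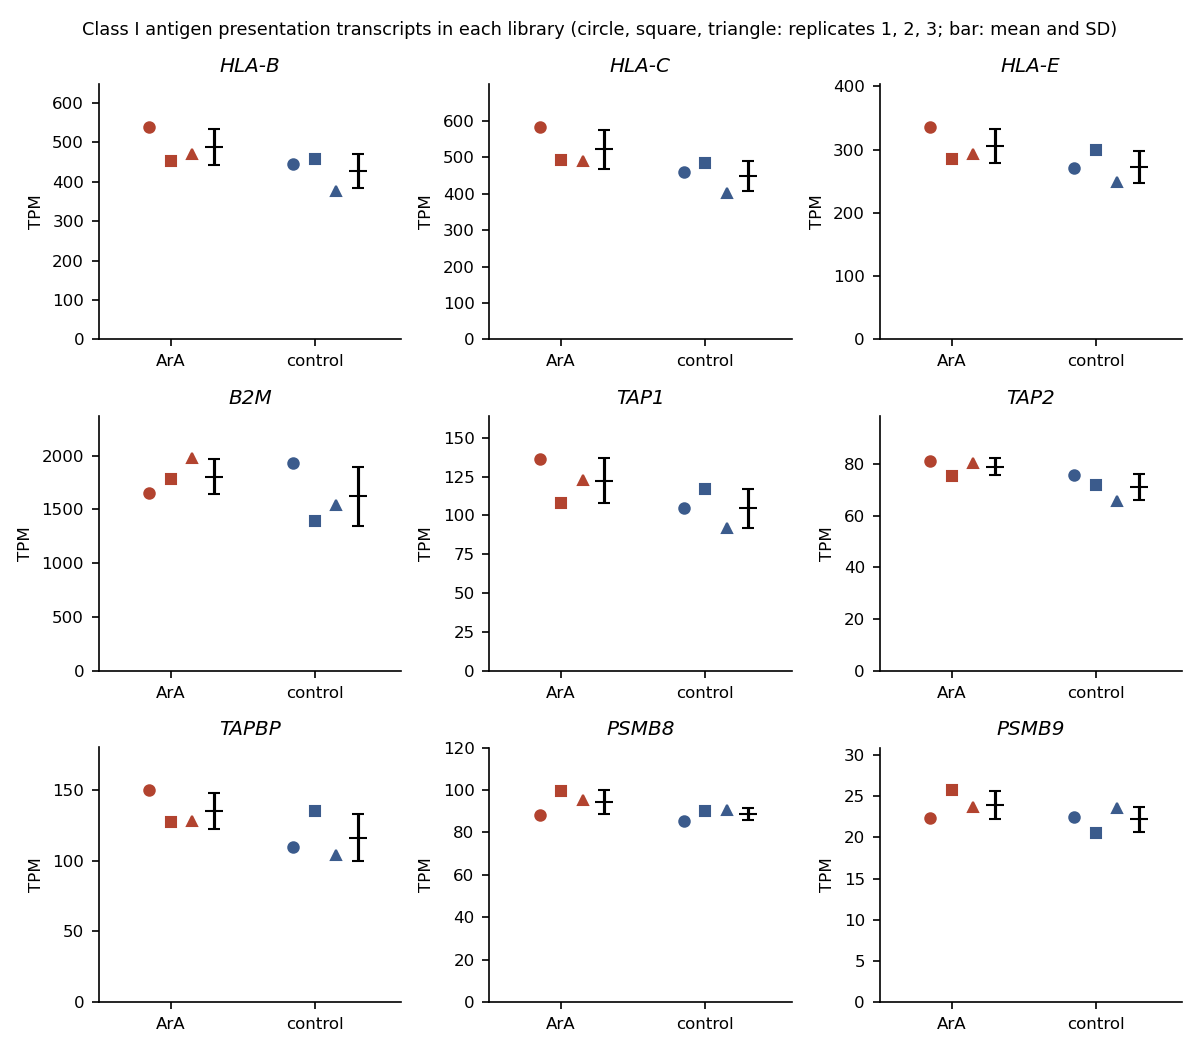
TPM (vertical axes, from 0) of the 9 class I genes in each library, ArA left and control right of each panel; circles, squares and triangles are replicates 1, 2 and 3, and bars give the mean and SD of 3 libraries. The groups overlap in every panel but that of HLA-C, and ArA replicate 1 is the highest library for HLA-B, HLA-C, HLA-E, TAP1, TAP2 and TAPBP.

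Heavy chains bind the peptide and are what T cells and natural killer cells read. HLA-C had 582.87, 492.34 and 488.34 TPM in ArA libraries 1, 2 and 3, against 458.88, 484.70 and 402.59 TPM in control libraries 1, 2 and 3. It was the only one of the 9 whose groups did not overlap, by a margin of 488.34 over 484.70 TPM. Of all genes tested, 8.05% did not overlap in either direction and 6.84% did not overlap with ArA higher. The log2 fold change of HLA-C was 0.21 (SE 0.11, 95% interval -0.04 to 0.47), which bounds the fold between 0.975 and 1.38, and the exact 2-sided permutation test of its 6 values gave p = 0.1, the smallest that 3 against 3 libraries allow.

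HLA-B had 538.83, 453.02 and 470.34 TPM in ArA libraries, against 444.41, 457.40 and 377.58 TPM in control libraries. ArA replicate 2 lay below control replicate 2, so the groups overlapped. Its log2 fold change was 0.19 (SE 0.11, 95% interval -0.06 to 0.44). HLA-E, which shows leader peptides of other class I chains to natural killer cells, had 335.83, 285.71 and 293.85 TPM in ArA libraries, against 271.21, 299.52 and 248.93 TPM in control libraries. Only ArA replicate 1 exceeded all controls. For HLA-E the log2 fold change came to 0.16 (SE 0.10, 95% interval -0.08 to 0.40). The sum of the 3 chains was 1314 ± 125 TPM in ArA and 1148 ± 109 TPM in control libraries (SD, n = 3 each), and its groups overlapped, with ArA replicate 2 at 1231 and control replicate 2 at 1242 TPM.

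B2M, the invariant light chain without which heavy chains do not reach the surface, had 1654.85, 1784.13 and 1973.05 TPM in ArA libraries, against 1928.69, 1393.71 and 1545.03 TPM in control libraries. Control replicate 1 stood above ArA replicates 1 and 2. For B2M the log2 fold change came to 0.16 (SE 0.13, 95% interval -0.15 to 0.47). B2M had the widest spread of the 9 among controls, a coefficient of variation of 17.0%, against 8.87% among ArA libraries.

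The transporter subunits and tapasin come next in the pathway. TAP1 had 136.52, 107.80 and 122.50 TPM in ArA libraries, against 104.73, 117.00 and 91.68 TPM in control libraries. Control replicate 2 lay between the ArA values, and the log2 fold change of 0.23 (SE 0.13, 95% interval -0.07 to 0.52) was the highest of the 9. TAP2 had 80.99, 75.31 and 80.42 TPM in ArA libraries, against 75.83, 71.84 and 65.80 TPM in control libraries. Its groups missed separation by 1 pair, ArA replicate 2 below control replicate 1, and its log2 fold change was 0.15 (SE 0.09, 95% interval -0.06 to 0.36). TAPBP had 149.77, 127.53 and 127.91 TPM in ArA libraries, against 109.92, 135.01 and 103.87 TPM in control libraries. Control replicate 2 exceeded 2 of the 3 ArA libraries. For TAPBP the log2 fold change came to 0.22 (SE 0.12, 95% interval -0.07 to 0.51).

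The immunoproteasome subunits had the lowest log2 fold changes of the 9. PSMB8 had 88.16, 99.47 and 95.24 TPM in ArA libraries, against 85.22, 90.13 and 90.35 TPM in control libraries, a log2 fold change of 0.09 (SE 0.08) with a fold bounded between 0.929 and 1.22. PSMB9 had 22.39, 25.73 and 23.72 TPM in ArA libraries, against 22.46, 20.52 and 23.51 TPM in control libraries, a log2 fold change of 0.11 (SE 0.10) with a fold bounded between 0.909 and 1.28. In both genes ArA replicate 1 lay inside the control range, unlike in the heavy chains. For the 8 genes other than HLA-C, the exact 2-sided permutation test gave p from 0.2 to 0.4.

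**Figure D2:**
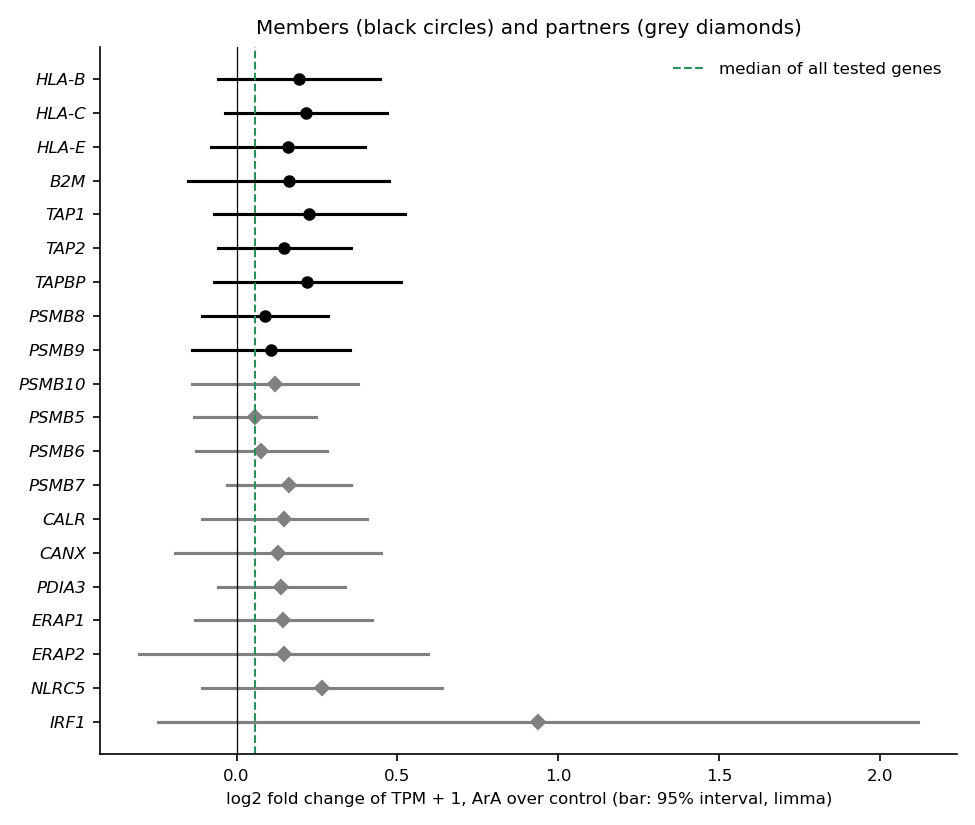
Log2 fold change of TPM + 1, ArA over control (horizontal axis), for the 9 class I genes (black circles) and 11 partner genes (grey diamonds), with 95% intervals from limma; the dashed line is the median of all genes tested, 0.06. Every interval shown includes 0, and that of IRF1 is the widest.

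A few libraries weighed on these differences. ArA replicate 1 was the highest of the 6 libraries for HLA-B, HLA-C, HLA-E, TAP1, TAP2 and TAPBP, and control replicate 3 was the lowest for the same 6 genes. The median log2 fold change of the 9, less that of all genes tested, was 0.11 with all libraries. It was 0.02 when ArA replicate 1 was left out and 0.04 when control replicate 3 was left out, but 0.22 in the absence of control replicate 2. Leaving out both ArA replicate 1 and control replicate 3 gave -0.08, and with the GC correction described next 3 of the 9 log2 fold changes were then positive (TAPBP, PSMB8 and PSMB9). The choice of these 2 libraries followed a look at the values, in which they were the highest ArA and the lowest control library for 6 of the 9, so leaving them out lowers the differences by construction. Without control replicate 2, HLA-C, TAP1 and TAPBP had an unadjusted limma p under 0.05, beside 720 of all 12999 genes tested. Without control replicate 1, B2M had one, beside 413 of the 12999. At an adjusted p of 0.05 in limma, 0 of the 9 passed with any 1 library left out. The same held without ArA replicate 1 together with control replicate 3, or together with control replicate 2.

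Base composition of the libraries moved with some of these values. Genes of at least 57.9% GC, less genes of at most 40.9% GC, had a median deviation from the gene's own mean of 0.34, -0.08 and -0.21 (log2) in ArA libraries 1, 2 and 3, and of -0.33, 0.47 and -0.19 in control libraries 1, 2 and 3. B2M, with 40.6% GC in its longest transcript, was the most GC-poor of the 9, and HLA-C, with 62.7%, the most GC-rich. B2M was lowest in control replicate 2, the library most tilted to GC-rich genes, where HLA-B, HLA-C, HLA-E, TAP1 and TAPBP had their highest control value. After each library's trend with GC content had been subtracted, B2M had 10.95, 10.69 and 10.76 (log2) in ArA libraries 1, 2 and 3, against 10.75, 10.80 and 10.46 in control libraries 1, 2 and 3. On that scale B2M, too, was highest in ArA replicate 1 and lowest in control replicate 3, with the other 4 libraries between. HLA-C also overlapped on that scale, with 9.15, 8.90 and 8.93 in ArA libraries and 8.95, 8.90 and 8.67 in control libraries. The 9 genes kept positive log2 fold changes after this correction, with a median of 0.13.

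**Figure D3:**
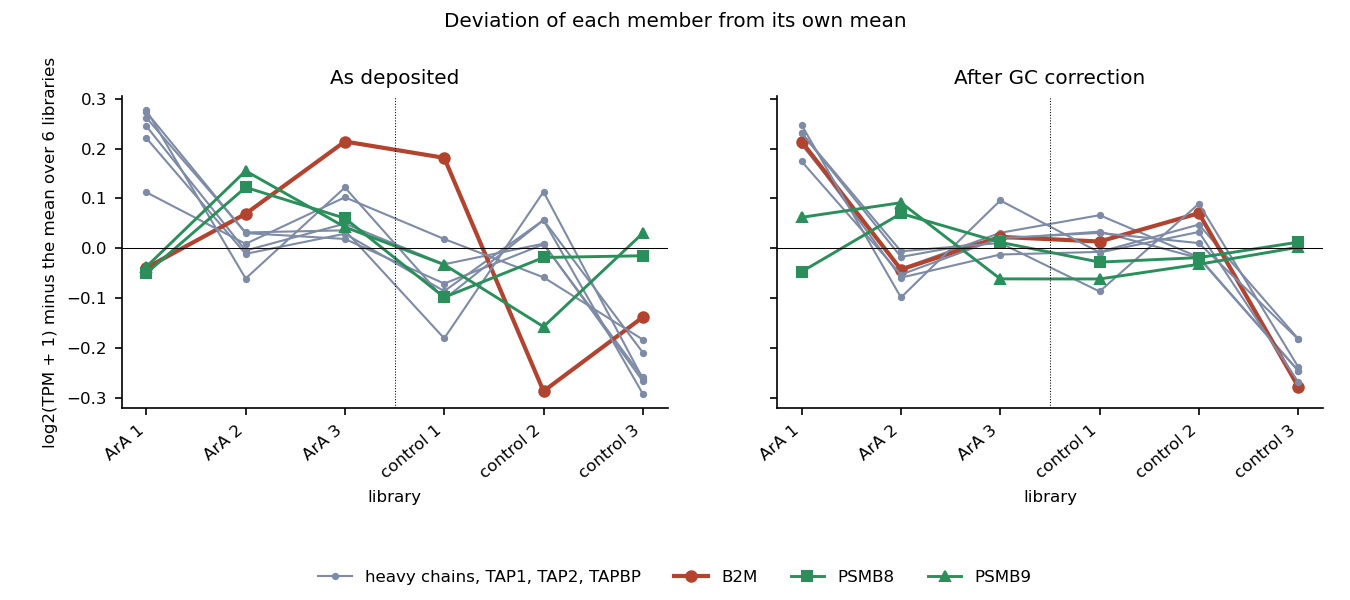
Deviation of each of the 9 genes from its own mean over 6 libraries (vertical axis, log2(TPM + 1)) in the 3 ArA libraries and then the 3 control libraries, on deposited values (left) and after subtracting each library's trend with GC content (right). B2M (red) departs from the heavy chains, TAP1, TAP2 and TAPBP (grey) on the left and lies among them on the right, while PSMB8 and PSMB9 (green) follow another course in both panels.

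Across the 6 libraries the heavy chains, TAP1, TAP2 and TAPBP varied together, with Pearson's r from 0.67 to 0.99 over their 15 pairs. These correlations are descriptions over 6 libraries that share group and base composition. B2M had an r of -0.16 to 0.60 with those 6 genes on deposited values and of 0.95 to 0.98 after the GC correction. PSMB8 and PSMB9 had an r of 0.71 with each other, 0.38 after GC correction, and of -0.28 to 0.17 with the heavy chains, TAP1, TAP2 and TAPBP. After GC correction those 12 values ranged from -0.64 to 0.30. The likeness rested in part on 2 libraries, ArA replicate 1 and control replicate 3, which were left out after their values had been looked at. Over the other 4 libraries the 15 pairs had an r of -0.24 to 0.96 on deposited values. Pairs with TAP2 ran from -0.24 to 0.52 there, and pairs without TAP2 from 0.57 to 0.96. After GC correction the 15 pairs ran from -0.77 to 0.97 over the same 4 libraries, with a median of 0.48. The GC-corrected r of B2M with the 6 genes then ran from -0.00 to 0.99. The contrast with the immunoproteasome subunits was not kept over the 4 libraries on deposited values, where those 12 pairs ran from -0.27 to 0.90, and from -0.99 to 0.09 after GC correction.

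**Figure D4:**
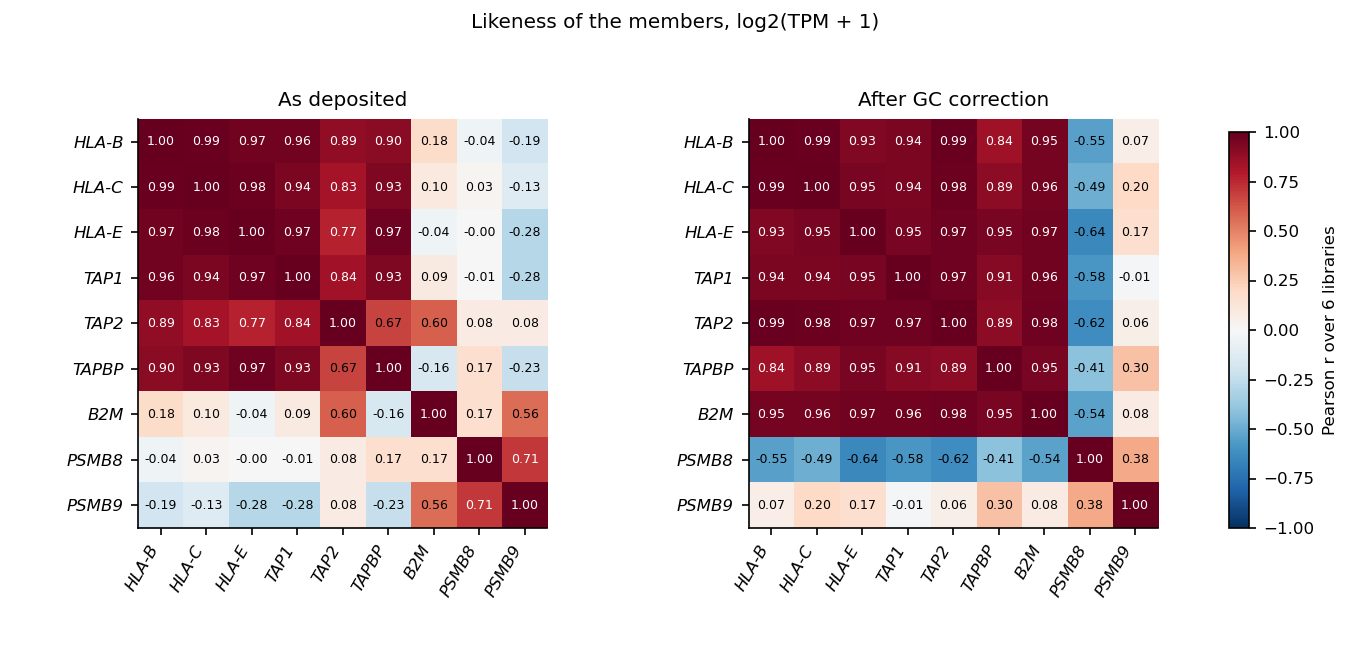
Pearson's r over 6 libraries between the 9 class I genes on the log2(TPM + 1) scale, on deposited values (left) and after GC correction (right); red is positive and blue negative. The block of heavy chains, TAP1, TAP2 and TAPBP holds values from 0.67 to 0.99 on the left, and B2M joins it on the right with 0.95 to 0.98.

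Outside the 9, the genes with the profile most like their mean standardised profile, among 9131 genes of at least 5 TPM, were TNFRSF10A (r = 0.996), RETSAT (r = 0.991), PODXL (r = 0.990), TOR1B (r = 0.989) and ABHD15 (r = 0.989), each over the 6 libraries. TNFRSF10A, a receptor for the death ligand TRAIL, had 46.10, 43.43 and 44.77 TPM in ArA libraries, against 39.13, 40.55 and 35.61 TPM in control libraries. These were taken from all those genes for their likeness, which is a description only.

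Ratios of 2 transcripts within a library do not depend on how the library was scaled. PSMB8 takes the place of PSMB5 and PSMB9 that of PSMB6 in immunoproteasomes. The ratio of PSMB8 to PSMB5 was 0.308, 0.324 and 0.314 in ArA libraries, against 0.320, 0.297 and 0.308 in control libraries. PSMB9 was far scarcer beside its counterpart, with a ratio to PSMB6 of 0.0678, 0.0759 and 0.0672 in ArA libraries, against 0.0758, 0.0581 and 0.0730 in control libraries. The remaining subunit of this kind, PSMB10, had a ratio to PSMB7 of 0.0525 ± 0.00259 in ArA and 0.0538 ± 0.00259 in control libraries (SD, n = 3 each). The groups overlapped in all 3 ratios.

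The head-to-head pair PSMB9 and TAP1 had a ratio of 0.199 ± 0.0376 in ArA and 0.215 ± 0.0405 in control libraries, and TAP1 stood at 1.55 ± 0.129 times TAP2 in ArA and 1.47 ± 0.140 times in control libraries (SD, n = 3 each). In ArA replicate 1 and control replicate 2, PSMB9 to TAP1 was the lowest of its group, at 0.164 and 0.175. TAP1 to TAP2 was the highest of its group there, at 1.69 and 1.63. The summed HLA-B, HLA-C and HLA-E had a ratio to B2M of 0.881, 0.690 and 0.635 in ArA libraries, against 0.609, 0.891 and 0.666 in control libraries. It was highest in ArA replicate 1 and control replicate 2, the same 2 libraries that were tilted to GC-rich genes. The part of base composition in these ratios was not tested. None of the 6 ratios separated the groups: exact 2-sided permutation p ran from 0.5 to 0.8, and each was 0.8 adjusted over the 6.

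**Figure D5:**
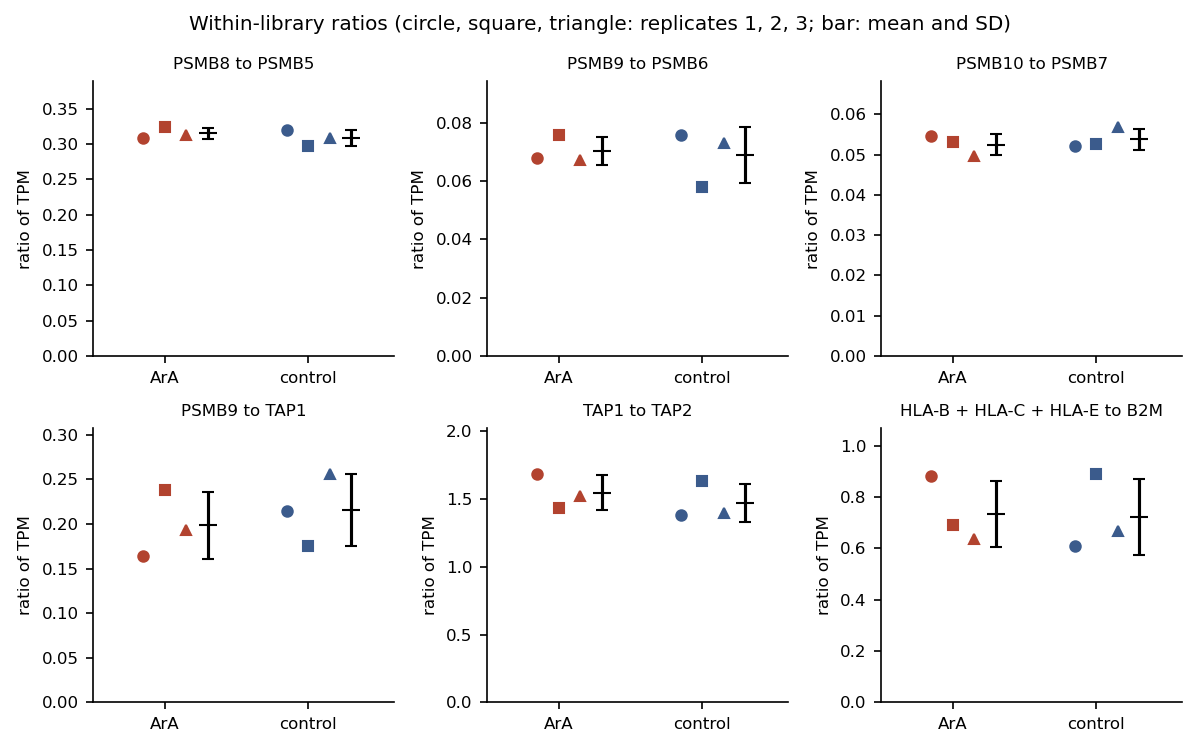
Within-library ratios of TPM (vertical axes, from 0) for 6 pairs, ArA left and control right of each panel; circles, squares and triangles are replicates 1, 2 and 3, and bars give the mean and SD of 3 libraries. The groups overlap in each panel.

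The other proteasome genes gave no call. Of 14 genes of the standard core, 0 passed in either direction, 14 had positive log2 fold changes and the median was 0.08. PSMB7, a catalytic core subunit, was the only one whose groups did not overlap, with 301.30, 309.63 and 320.05 TPM in ArA libraries, against 255.32, 295.29 and 282.11 TPM in control libraries (log2 fold change 0.16, SE 0.08). That is 1 of 14, while 8.05% of all genes tested did not overlap. PSMB1, another core subunit, had a log2 fold change of 0.19 (SE 0.10), and PSMA7, the most abundant of the core, stood at 413 ± 37.9 TPM in ArA and 393 ± 26.9 TPM in control libraries (SD, n = 3 each). Among 6 immunoproteasome partners and activators, 0 passed and the median log2 fold change was 0.12. PSME2, a subunit of the interferon-inducible activator cap, was the most abundant of these at 445 ± 50.5 TPM in ArA and 406 ± 12.4 TPM in control libraries (SD, n = 3 each).

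The peptide loading genes likewise held 0 calls among 17 tested, with 15 positive and a median log2 fold change of 0.13. Calreticulin (CALR), a chaperone of the loading complex, had 1956.46, 1765.79 and 1694.97 TPM in ArA libraries, against 1619.35, 1841.31 and 1441.25 TPM in control libraries. Its level was close to that of B2M, and control replicate 2 exceeded 2 ArA libraries. PDIA3, the disulfide isomerase bound to tapasin, had 745 ± 19.8 TPM in ArA and 678 ± 58.3 TPM in control libraries, and calnexin (CANX), which folds new heavy chains, had 918 ± 20.6 TPM in ArA and 850.1 ± 163 TPM in control libraries (SD, n = 3 each). SEC61A1, a channel subunit of the endoplasmic reticulum, had a log2 fold change of 0.18 (SE 0.11). The 2 genes with negative values were TPP2, a cytosolic peptidase, at -0.09 (SE 0.24), and SEC61G, another channel subunit, at -0.01 (SE 0.12). The peptide trimmers of the endoplasmic reticulum differed in level from each other, with ERAP1 at 32.4 ± 1.22 TPM in ArA and 29.3 ± 4.01 TPM in control libraries, and ERAP2 at 3.34 ± 0.156 TPM in ArA and 2.99 ± 0.853 TPM in control libraries (SD, n = 3 each).

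Of 25 tested regulators of class I transcription and interferon signalling, 0 passed, 16 had positive log2 fold changes and the median was 0.08. IRF1, an interferon-induced activator of class I genes, had 15.97, 17.42 and 68.12 TPM in ArA libraries, against 12.76, 14.42 and 13.50 TPM in control libraries. All 3 ArA values lay above the controls, but 1 library held most of the difference (log2 fold change 0.94, SE 0.50, limma adjusted p = 0.999). In that library, ArA replicate 3, B2M had its highest value of all 6 libraries and HLA-C its lowest ArA value, while HLA-B, HLA-E, TAPBP, PSMB8, PSMB9, TAP1 and TAP2 had values between those of the other ArA libraries. On the GC-corrected scale B2M was highest in ArA replicate 1, HLA-C had its lowest ArA value in replicate 2, and PSMB9 its lowest in replicate 3. A link of these values with IRF1 was not tested. NLRC5, the class I co-activator, had 13.87, 12.45 and 13.63 TPM in ArA libraries, against 8.80, 10.89 and 13.45 TPM in control libraries, a log2 fold change of 0.27 (SE 0.16). IRF3, a factor that switches on type I interferon genes and the most abundant of these regulators, stood at 85.1 ± 4.25 TPM in ArA and 85.8 ± 6.94 TPM in control libraries (SD, n = 3 each). IRF9, a subunit of the type I interferon response complex, did not overlap, with 54.66 to 62.61 TPM in ArA and 48.86 to 52.51 TPM in control libraries. Of the 25 regulators, 3 did not overlap (IRF1, IRF9 and RFX5), against 8.05% of all genes tested. On the negative side, RFXANK and NFYC, parts of the complexes that hold NLRC5 at class I promoters, had log2 fold changes of -0.07 (SE 0.10) and -0.07 (SE 0.08).

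Genes listed for class I turnover and surface control gave 0 calls among 11 tested, all 11 with positive log2 fold changes and a median of 0.14. SUSD6, a membrane protein that works with TMEM127 and WWP2 to send class I to degradation, had 5.93, 6.44 and 6.49 TPM in ArA libraries, against 5.23, 5.03 and 4.74 TPM in control libraries. HM13, the signal peptide peptidase and the most abundant of these genes, had 416 ± 46.8 TPM in ArA and 374 ± 42.8 TPM in control libraries, and TMEM127 had 29.1 ± 2.10 TPM in ArA and 26.6 ± 1.71 TPM in control libraries (SD, n = 3 each). STT3A, a catalytic subunit of the enzyme that adds N-glycans, had 183.82, 184.22 and 185.54 TPM in ArA libraries, against 161.54, 163.26 and 149.08 TPM in control libraries. In this list 3 of 11 did not overlap (SUSD6, STT3A and SYVN1, a ubiquitin ligase of the endoplasmic reticulum), against 8.05% of all genes tested. SUSD6 and STT3A, 2 of 11, had unadjusted p of 0.0496 and 0.0183 in limma, with adjusted p of 0.999, and 2.78% of all genes tested had an unadjusted p under 0.05. The median log2 fold changes of these lists stand beside 0.06 for all genes tested, and their counts of positive values beside 68.9% of all genes tested.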

How the data were processed

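RNA of 6 MDA-MB-231 libraries, 3 ArA and 3 control, was described by a deposited table of TPM made by the authors. HISAT2, StringTie, RSEM and hg38 are named, per the submitters' processing notes, without versions or roles. Which annotation and strand setting served is not given in the sources used here, and depth cannot be had from TPM. Groups and replicate numbers came from sample titles. Of the table's lines, 50 name no gene and were left out.

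Genes averaging 1 TPM or more (12999, all 9 class I genes among them) were put on the log2(TPM + 1) scale, which understates the change of low genes, and fitted with limma 3.58.1 (R 4.3.3, eBayes with trend) on group alone. P-values were 2-sided and Benjamini-Hochberg adjusted across every gene in the fit, with a threshold of 0.05. The fit was checked on simulated data. Ratios had exact permutation tests adjusted over 6. GC content came from the longest GENCODE v29 transcript, for 97.2% of tested genes, and the correction was a spline of 5 degrees of freedom. Promoters came from RefSeq, and the motifs were chosen with the windows in view.

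The class I genes and the lists were chosen with earlier results of these data known. The naming rule took the 9 genes, 11 set partners and, from each list, the 2 smallest p per direction and the highest mean. TMEM127, MICB, HLA-G, CIITA, HLA-DQA1, HLA-DMB, HLA-DPA1, HLA-DPB1, ESR1, PGR, CDH1, RFX5, SYVN1 and the blood markers at 0 were named outside it, after their values were seen. Of the listed genes, 3 are not reported here, nor counted in the lists. Alternatives were other scalings, pseudocounts of 0.1 and 5, other filters, the replicate block, eBayes without trend, GC correction and libraries left out; leaving out ArA replicate 1 with control replicate 3, alone and with GC correction, was chosen after seeing the data.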

Additional observations from a re-analysis of the deposited data

How the results depend on the processing

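No class I gene passed in limma under any of 20 alternatives, 2 of them chosen after seeing the data, and 174 of 180 log2 fold changes stayed positive. The other 6 came with GC correction without both control replicate 3 and ArA replicate 1: HLA-B -0.029, HLA-C -0.0063, HLA-E -0.056, B2M -0.052, TAP1 -0.014 and TAP2 -0.037 (log2). The median of the 9 less that of all genes was 0.10, 0.12 and 0.10 under median of ratios, quantile normalization and rescaling without mitochondrially encoded genes. These scalings moved the median of all genes, 0.06, to 0.01, 0.01 and -0.00.

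The count of all genes past the threshold, 3, became 0 with the replicate block (232 had an unadjusted p under 0.05), 5 with GC correction, 12 without both control replicate 2 and ArA replicate 1 and 1 without both control replicate 3 and ArA replicate 1. It ran from 0 to 7 with 1 library left out, at 0 without control replicate 1 or ArA replicate 2 and at 7 without control replicate 2 or ArA replicate 1. Same-numbered libraries had deviation correlations of -0.16, -0.28 and 0.11, and those of differently numbered libraries ran from -0.24 to 0.29. With 3 libraries a group, these values cannot tell whether the numbers pair the libraries. The block changed no call on the 9.

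Of 54 ratios under alternatives, 41 kept their sign, those of PSMB8 to PSMB5 among them. With 1 library, or control replicate 2 and ArA replicate 1 together, left out, the log2 difference of PSMB9 to PSMB6 ran from -0.084 to 0.11, that of PSMB10 to PSMB7 from -0.083 to 0.0039, that of PSMB9 to TAP1 from -0.26 to 0.018 and that of the summed heavy chains to B2M from -0.11 to 0.19. Without that pair, PSMB9 to PSMB6 gave -0.059. Without both control replicate 3 and ArA replicate 1, PSMB9 to TAP1 gave 0.15, TAP1 to TAP2 -0.022 and the summed heavy chains to B2M -0.15. The cause was not tested. With depth unknown, precision rests on the spread of 3 libraries a group.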

Other observations

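Genes of class I-like molecules outside peptide presentation to T cells were also measured, and 0 of 9 tested passed. Of these, 8 had positive log2 fold changes, against 68.9% of all genes tested, and the median was 0.22, against 0.06. MICA and MICB, stress ligands of the natural killer receptor NKG2D, had 261 ± 30.7 and 74.3 ± 4.70 TPM in ArA libraries, against 240.4 ± 24.4 and 70.2 ± 5.89 TPM in control libraries (SD, n = 3 each). ULBP2, another NKG2D ligand, had 56.56, 56.93 and 59.86 TPM in ArA libraries, against 48.50, 49.50 and 41.74 TPM in control libraries. Its groups did not overlap, and its log2 fold change was 0.31 (SE 0.10, unadjusted p = 0.0148, limma adjusted p = 0.999). HLA-F, a class I heavy chain of restricted expression, had 9.18, 8.68 and 7.39 TPM in ArA libraries, against 6.46, 6.30 and 7.38 TPM in control libraries, groups that did not overlap by a margin of 7.39 over 7.38 TPM. Of the 9 tested genes, 2 did not overlap (ULBP2 and HLA-F), against 8.05% of all genes tested. HFE, a class I-like regulator of iron uptake, was the 1 gene of this list with a negative log2 fold change, -0.06 (SE 0.12). HLA-G, the heavy chain of the placenta, stayed between 0.28 and 0.41 TPM in ArA and between 0.19 and 0.47 TPM in control libraries.

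The class II pathway, which presents peptides to CD4 T cells and is a mark of professional antigen-presenting cells, was low for most of its genes. Of its 13 genes, 8 had a mean under 1 TPM, and 0 of the 5 tested passed. CIITA, its master regulator, had 0.04, 0.29 and 0.05 TPM in ArA libraries, against 0.18, 0.02 and 0.17 TPM in control libraries, and HLA-DQA1 was listed at 0 in all 6. IFI30, a lysosomal thiol reductase, and HLA-DMA, part of the class II peptide editor, had the highest levels, at 173 ± 20.0 and 26.4 ± 4.82 TPM in ArA libraries, against 157 ± 20.3 and 22.5 ± 3.36 TPM in control libraries (SD, n = 3 each). The other 3 above 1 TPM on average, HLA-DMB, HLA-DPA1 and HLA-DPB1, were between 1.17 and 4.17 TPM in ArA and between 1.03 and 4.11 TPM in control libraries.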
